A study of Mus musculus with 6 samples.

Results

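The clustered Hox genes of the mouse were followed in C2C12 cells, an established line of myoblasts (muscle precursor cells) that came from the leg muscle of adult mice. The 38 members were taken by name, as the genes of the HoxA, HoxB, HoxC and HoxD clusters whose RefSeq accession is carried by a non-control probe, and the naming rule itself uses no measured value. They were read by 41 of the 39429 probes of a single-colour Agilent array, and 21 of the 38 were among the 22056 genes and unnamed transcripts that entered the test. Cells of both groups grew in medium with 10% serum and were transfected with small interfering RNA. One group received a negative control oligo (siRNA-NC) and the other an oligo aimed at Meg3, a long non-coding RNA (siRNA-MEG3), and each group has 3 arrays that the labels call biological replicates. The question was which Hox genes these cells express and whether any differed after the transfection against Meg3. The line is 1 cell clone in culture, and how long after transfection the RNA was taken is not stated in the labels.

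Hox genes encode homeodomain transcription factors that give cells their position along the body and limb axes. Within a cluster, the low-numbered genes act towards the head and the high-numbered genes towards the tail and the tip of the limb, and genes with the same number in different clusters (paralogues) descend from a common ancestor and share much of their function. The factors bind DNA together with Pbx and Meis proteins. Trithorax complexes keep active Hox genes on, and Polycomb complexes keep other Hox genes silent. Cells taken from an adult tissue usually keep the pattern of their place of origin.

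The 6 arrays did not stand for 6 independent samples. The single-spot scatter of siRNA-MEG3 array 1 recurred on array 3 (r = 0.979), as in repeat scans of 1 array, and siRNA-NC array 1 was within spot noise of array 3 (between-probe over within-probe variance 1.03, against 172.8 for siRNA-NC arrays 1 and 2), so each pair was averaged and every test compared 2 samples with 2. Both siRNA-MEG3 samples were also close to each other (1.43), so the p-values rest on a spread that may be technical. The siRNA-NC arrays came from 1 scan session and the siRNA-MEG3 arrays from others, so scan and group cannot be told apart. Parts of the siRNA-MEG3 arrays read dark, from 5.95 to 33.9% of the area, and this is given beside the Hox genes whose spots lay there. The 75th percentile of the signal was 2279 on siRNA-NC array 2 and 1232 to 1334 on the other arrays, so groups were compared on log2 signals relative to each array's own 75th percentile. Of the 3 probes for Meg3 itself, 1 was well above background on siRNA-NC array 2 and none on any other array, so the knockdown could not be read here. All 8 myoblast and muscle markers were measured, while Epcam, an epithelial marker, was above background on no array.

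The HoxA cluster and most of HoxC were on, HoxB was mostly dim and HoxD was nearly silent. "On" is used here of a gene with a probe that the scanner software marked as well above background on all 6 arrays. That held for 16 of the 38 members (42.1%, against 66.8% of the 20659 named genes on the array). By cluster it held for 9 of 10 in HoxA (90%), 1 of 10 in HoxB (10%), 6 of 9 in HoxC (66.7%) and 0 of 9 in HoxD. The HoxC share is thus about that of all named genes. Hoxa2, Hoxa3, Hoxa4, Hoxa5, Hoxa7, Hoxa9, Hoxa10, Hoxa11 and Hoxa13 were on in HoxA, Hoxb6 in HoxB, and Hoxc4, Hoxc6, Hoxc9, Hoxc10, Hoxc12 and Hoxc13 in HoxC. In a further 5 genes (Hoxa6, Hoxb3, Hoxb4, Hoxc5 and Hoxd11) a probe was above background on all arrays of 1 group only, which brought the measured members to 21 (55.3%, against 75.6% of named genes).

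**Figure D1:**
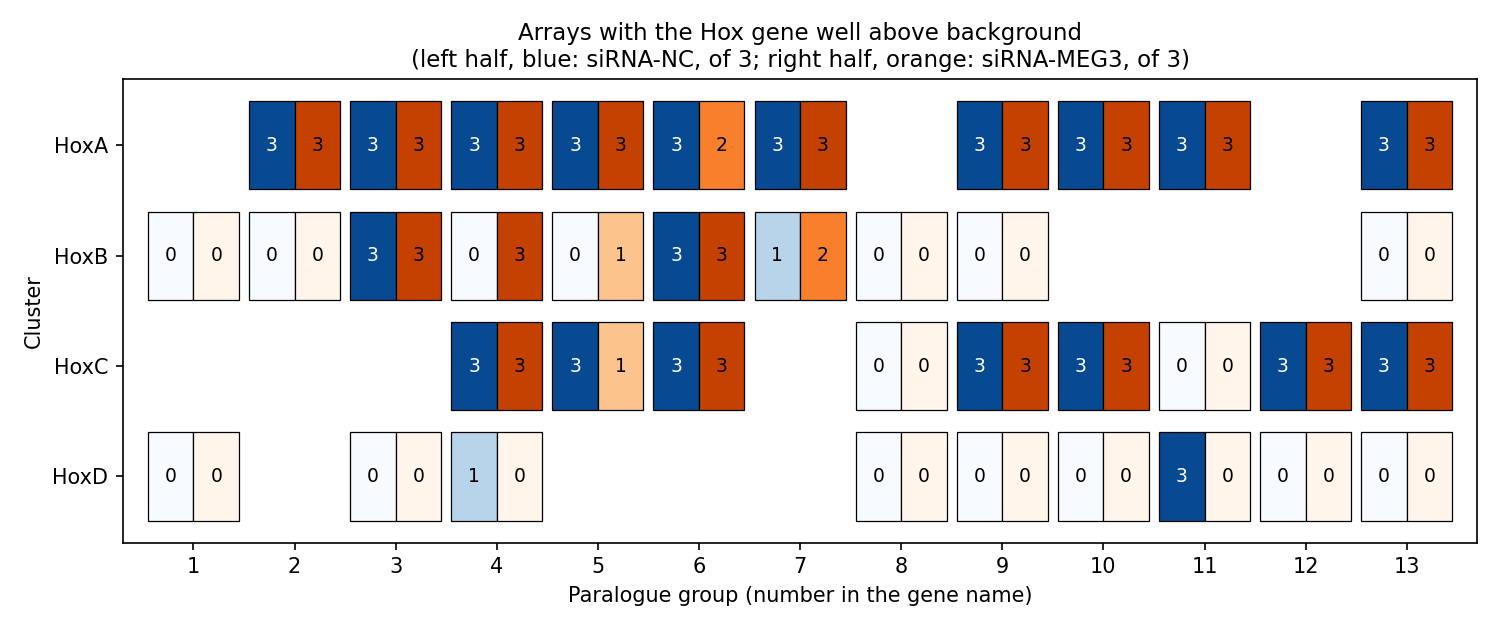
Number of arrays (0 to 3) on which each Hox gene had a probe well above background, by cluster (rows) and paralogue group (columns), with siRNA-NC on the left and siRNA-MEG3 on the right of each tile. HoxA is filled from Hoxa2 to Hoxa13, HoxC has gaps at Hoxc8 and Hoxc11, and HoxD has 1 dark field, siRNA-NC at Hoxd11. The 3 and 3 of Hoxb3 come from different probes. A place without a tile holds no gene or a gene not analysed here.

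The remaining members were dim. Hoxb1, Hoxb2, Hoxb8, Hoxb9, Hoxb13, Hoxc8, Hoxc11, Hoxd1, Hoxd3, Hoxd8, Hoxd9, Hoxd10, Hoxd12 and Hoxd13, 14 in all, were above background on no array (36.8%, against 15.0% of named genes). Their processed signals (intensity units after the scanner software's background subtraction) had medians of 4.59 in siRNA-NC and 5.33 in siRNA-MEG3 for the 7 HoxD genes, and no array exceeded 20.6. Being at background on an array does not show that a gene is not transcribed. Some of these spots lay in dark areas of siRNA-MEG3 arrays, Hoxc8 and Hoxd9 on array 2, Hoxd8 on arrays 1 and 3, Hoxd10 on array 1 and a share of 0.1 to 0.3 of the Hoxb1 spots on each array. These genes were at background on the siRNA-NC arrays too, on which no area was called dark, though the rule takes those arrays as its reference. Hoxb5 was above background on siRNA-MEG3 array 2 only, Hoxd4 on siRNA-NC array 2 only, and Hoxb7 on siRNA-NC array 2 and siRNA-MEG3 arrays 1 and 3, so these 3 genes were not tested.

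In HoxA the genes that were on ran from Hoxa2 to Hoxa13 and in HoxC from Hoxc4 to Hoxc13, with gaps in both. HoxB had Hoxb6 alone on and HoxD had no gene on. Genes of paralogue groups 1 to 3 were on in 2 of 7 cases, groups 4 to 8 in 6 of 15 and groups 9 to 13 in 8 of 16, shares of 28.6, 40 and 50% whose difference was not tested. Paralogue groups 1 and 8 had no gene on, whereas groups 4, 6, 9, 10 and 13 each had 2. In HoxC, Hoxc8 and Hoxc11 were at background on every array although Hoxc6, Hoxc9, Hoxc10 and Hoxc12 on either side of them were on. Each of these silent readings rests on 1 probe.

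In HoxA none of the 10 measured genes passed the test (limma with Benjamini-Hochberg adjustment over all 22056 entries, threshold 0.05), and their median log2 fold change was -0.18, against -0.02 over all entries. Fold changes below are siRNA-MEG3 over siRNA-NC on the log2 scale with their standard error (n = 2 samples per group). Hoxa11, which patterns the forearm and lower leg together with Hoxd11, read 5660, 6744 and 5321 in siRNA-NC (arrays 1 to 3 in order, here and below) and 3671, 3663 and 3431 in siRNA-MEG3. It is printed in 10 spots, and after scaling all siRNA-MEG3 arrays lay below all siRNA-NC arrays. The difference of -0.37 ± 0.27 did not pass (adjusted p = 0.550, limma). Of its spots, a share of 0.5 on siRNA-MEG3 array 1 and 0.4 on array 3 lay in dark areas. Hoxa11os, the antisense RNA that overlaps Hoxa11, gave 0.07 ± 0.27 (adjusted p = 0.926, limma).

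Hoxa7, a trunk gene, read 2294, 1567 and 2264 in siRNA-NC and 941, 594 and 908 in siRNA-MEG3. The unscaled signals are apart, but once scaled to the 75th percentile the groups overlap, because siRNA-NC array 2 was the brighter array. Its difference was -0.97 ± 0.57 (adjusted p = 0.459, limma). Hoxa10, which acts in the hindlimb and the uterus, read 941, 2137 and 885 against 1206, 1215 and 1129. Its difference was 0.15 ± 0.23 (adjusted p = 0.791, limma), and the scaled groups overlap. Hoxa9, known for its role in blood progenitors and leukaemia, was read by 2 probes that gave -0.14 ± 0.30 and -0.44 ± 0.63, neither of them past the threshold. The brighter probe read 346, 834 and 302 in siRNA-NC and 313, 426 and 304 in siRNA-MEG3, where array 1 lay in a dark area, and the spots of the other probe did so on arrays 1 and 3.

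Hoxa13, the gene of the hand and foot plate, was dim but on. Its brighter probe read 27.7, 184.5 and 32.8 in siRNA-NC and 50.3, 33.3 and 49.8 in siRNA-MEG3, with the spots of arrays 1 and 3 in dark areas. siRNA-NC array 2 stands far above the other siRNA-NC arrays, and the difference of -0.49 ± 0.68 did not pass (adjusted p = 0.762, limma). Without that array it was 0.39. Its other probe read 20.0, 55.9 and 29.9 against 14.3, 20.9 and 18.6, was above background on siRNA-MEG3 array 2 alone in that group, and gave -0.62 ± 0.25 (adjusted p = 0.301 in the fit over probes, limma), also with arrays 1 and 3 in dark areas. Hoxa6 read 68.0, 156.2 and 66.9 in siRNA-NC and 102.0, 13.8 and 99.5 in siRNA-MEG3. Its low value is the spot of siRNA-MEG3 array 2, which lay in a dark area and was not above background, and the difference of -1.08 ± 1.04 (adjusted p = 0.651, limma) became 0.39 without that array.

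The other HoxA genes overlapped between the groups. Hoxa2, which patterns the hindbrain and the second pharyngeal arch, read 197.0, 191.2 and 188.9 against 178.4, 208.9 and 175.1 (0.38 ± 0.36). Hoxa3, required for the thymus, read 2906, 2467 and 2165 against 1584, 1720 and 1521 (-0.23 ± 0.36). Hoxa4 read 92.8, 147.1 and 99.1 against 55.6, 142.1 and 54.6 (-0.04 ± 0.50), with siRNA-MEG3 array 1 in a dark area. Arrays 1 and 3 of that group, averaged as 1 sample, stand together below array 2. Hoxa5, which acts in lung and neck, read 257, 849 and 307 against 345, 399 and 319 (-0.04 ± 0.33).

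**Figure D2:**
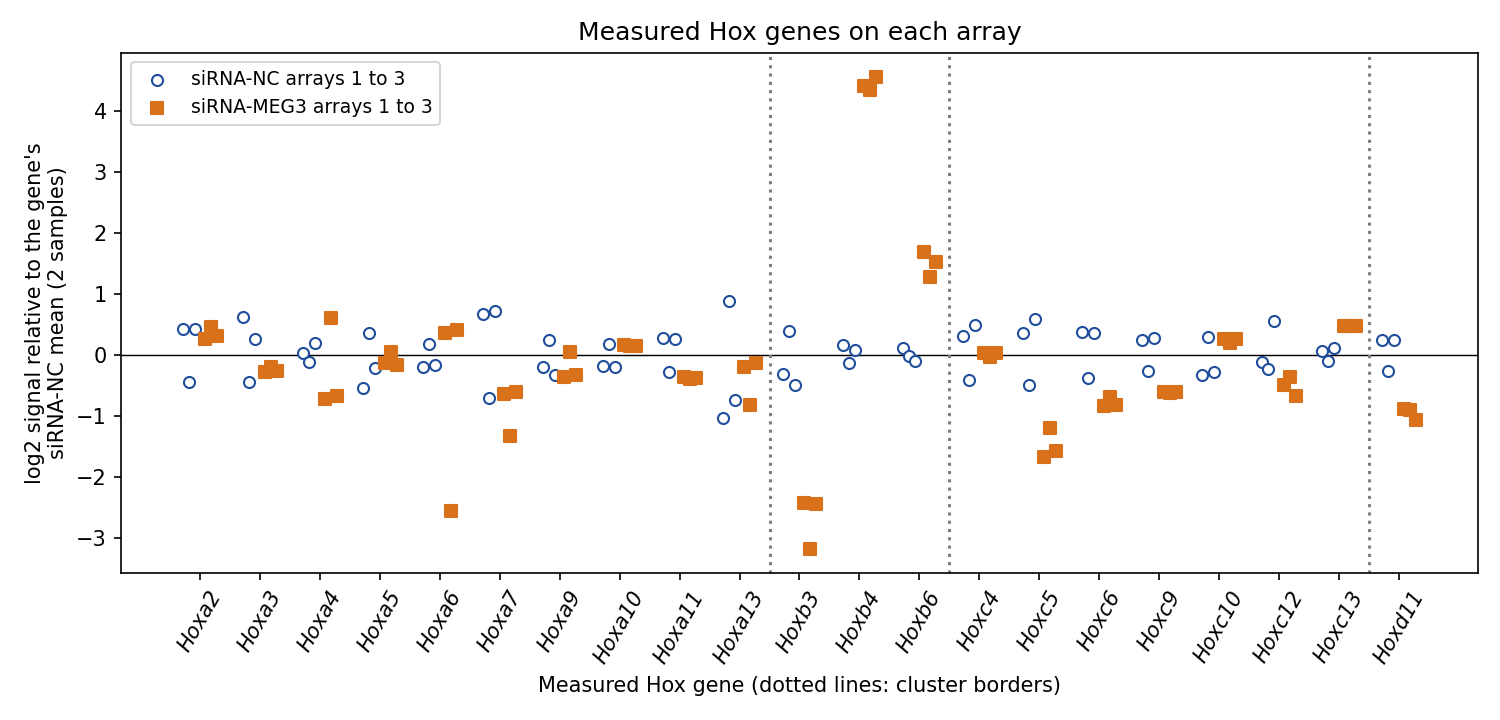
Log2 signal of the 21 measured Hox genes on each array, scaled to the array's 75th percentile and set relative to the gene's mean over the 2 siRNA-NC samples (y axis), with siRNA-NC arrays as open circles and siRNA-MEG3 arrays as squares. Hoxb4 and Hoxb6 lie above and Hoxb3 (brighter siRNA-NC probe) and Hoxc5 below their siRNA-NC arrays, while most HoxA genes overlap. Arrays 1 and 3 of each group were averaged for the test.

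In HoxC none of the 7 measured genes passed the test, with 3 positive and 4 negative differences and a median of -0.46. Hoxc6, a thoracic gene, read 14966, 15757 and 14196 in siRNA-NC and 6571, 7454 and 6309 in siRNA-MEG3. Hoxc9, which sets the thoracic identity of spinal motor neurons, read 5755, 7135 and 5611 against 3242, 3247 and 3059. In both genes every siRNA-MEG3 array was below every siRNA-NC array after scaling. The differences were -0.75 ± 0.33 for Hoxc6 and -0.61 ± 0.27 for Hoxc9 (adjusted p = 0.327 for each, limma). The Hoxc6 spot of siRNA-MEG3 array 2 lay in a dark area but was the brightest of its group.

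Hoxc13, known for its role in hair and nails, went the other way. It read 1754, 2740 and 1730 in siRNA-NC and 2343, 2407 and 2234 in siRNA-MEG3, which do not overlap after scaling, and its difference was 0.48 ± 0.21 (adjusted p = 0.322, limma). Hoxc10, a lumbar and hindlimb gene, read 2641, 7156 and 2600 against 4011, 3895 and 3807 (0.23 ± 0.28), where the groups overlap and siRNA-MEG3 array 2 lay in a dark area. Hoxc4 read 4512, 4858 and 4884 against 3776, 3667 and 3581 (0.00 ± 0.34), with siRNA-MEG3 arrays 1 and 3 in dark areas. After scaling the Hoxc4 groups overlap.

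Of the dimmer HoxC genes, Hoxc5 read 59.1, 58.3 and 66.6 in siRNA-NC and 14.6, 20.7 and 14.9 in siRNA-MEG3, where array 2 alone was above background. The groups do not overlap, and the difference of -1.41 ± 0.41 did not pass (adjusted p = 0.198, limma). Hoxc12 read 46.7, 75.7 and 70.5 against 36.4, 40.6 and 30.3 and was on throughout. Its difference was -0.46 ± 0.26 (adjusted p = 0.439, limma), again without overlap after scaling.

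HoxB held the one Hox gene that passed the test, Hoxb4, which was higher in siRNA-MEG3. Hoxb4 acts in the neck and hindbrain region and is known for expanding blood stem cells. It read 3.27, 4.74 and 2.95 in siRNA-NC, not well above background on any array, and 63.1, 61.2 and 66.2 in siRNA-MEG3, well above background on all 3. The groups do not overlap, and on the scaled processed signals Hoxb4 was at least 5.02-fold higher in siRNA-MEG3 (adjusted p = 0.0206, limma). Hoxb4 entered the test only through siRNA-MEG3, the group in which it is high, so a difference was favoured by the filter, and with no filter on dim probes the adjusted p was 0.0578 (limma; 4e-15 to 0.61 over all other settings). The bound sets the siRNA-MEG3 mean against, on each siRNA-NC array, the higher of the probe's own signal and the lowest signal of any probe well above background. The fitted difference of 4.41 ± 0.22 uses the siRNA-NC signals below background and is therefore no measure of size.

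The Hoxb4 reading rests on 1 probe and on a low signal. Its spots on siRNA-MEG3 arrays 1 and 3 lay in dark areas, while that on array 2, at 61.2, did not. The adjusted p stayed under the threshold in 16 of 20 other settings. It lost the call with normexp background correction (difference 2.63), with normexp without spots next to bright specks (1.36), with no filter on dim probes and without siRNA-NC array 2 (4.29), where no entry on the whole array passed. With the dark areas left out Hoxb4 could not be fitted. In RefSeq the gene overlaps the span of Hoxb3.

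The 250 bases before the annotated start of Hoxb4 are shown because it is the only member called, and those of Hoxa11 and Hoxd11 because they are limb paralogues of which the first was on and the second dim. Sequences are from RefSeq on GRCm38.p6, read 5′ to 3′ on the gene's strand, with each CG dinucleotide (the site of DNA methylation) in capitals. Hoxb4 lies at chr11:96318017-96318266 on the plus strand, Hoxa11 at chr6:52245811-52246060 on the minus strand, and the downstream of the 2 Hoxd11 starts at chr2:74682073-74682322 on the plus strand.
Hoxb4: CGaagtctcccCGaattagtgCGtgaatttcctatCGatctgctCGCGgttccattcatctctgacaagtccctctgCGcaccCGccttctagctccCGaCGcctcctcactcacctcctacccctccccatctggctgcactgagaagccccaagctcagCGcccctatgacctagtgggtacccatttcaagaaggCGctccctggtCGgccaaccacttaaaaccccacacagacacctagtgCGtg
Hoxa11: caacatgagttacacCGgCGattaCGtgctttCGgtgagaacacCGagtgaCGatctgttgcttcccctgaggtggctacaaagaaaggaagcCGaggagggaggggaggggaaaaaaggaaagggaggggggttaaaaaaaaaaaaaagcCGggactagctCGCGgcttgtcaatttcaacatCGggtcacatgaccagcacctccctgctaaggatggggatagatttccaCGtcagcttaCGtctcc
Hoxd11: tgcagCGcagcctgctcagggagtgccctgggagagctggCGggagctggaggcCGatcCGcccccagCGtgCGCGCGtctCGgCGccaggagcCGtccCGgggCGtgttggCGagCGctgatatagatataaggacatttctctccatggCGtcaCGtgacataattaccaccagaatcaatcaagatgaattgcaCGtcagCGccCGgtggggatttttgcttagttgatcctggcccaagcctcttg
Hoxb4 holds 14 CG dinucleotides, Hoxa11 13 and Hoxd11 20, or 0.760, 0.792 and 0.880 of the number their base composition would give. Of all 32851 promoter windows of this length, 29.4, 31.5 and 17.9% hold at least as many. The window of the other Hoxd11 start, not shown, differs. It holds 2 CG dinucleotides, 0.160 of the number its base composition would give, and 81.2% of all windows hold at least as many. Promoter windows were matched for 22 of the 38 members (24 starts). The 10 windows of genes on in all arrays had a median of 10.5 CG dinucleotides (range 3 to 35), against 6 over all windows. The 9 windows of genes above background nowhere had 12 (6 to 31). The 5 windows of the other members, Hoxb4 and Hoxd11 among them, had 14 (2 to 24). The ranges overlap, and a difference between these sets was not tested. The Hox and Pbx half-site pair TGATNNAT, searched on both strands, was found in 4 of the 24 windows (16.7%, against 7.68% of all windows), 1 of them the Hoxd11 window shown. The windows of Hoxb4, Hoxa11 and the other Hoxd11 start held none. The E-box CANNTG, the core bound by the MyoD family, was found in 17 (70.8%, against 66.2%). A match is a description of letters and shows no binding.

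The probes for Hoxb3, the neighbour of Hoxb4, disagreed. Probe A_51_P460643 read 33.5, 97.0 and 28.5 in siRNA-NC and 7.85, 4.75 and 7.41 in siRNA-MEG3, where no array was above background. Probe A_52_P312467 read 3.28, 3.71 and 3.17 in siRNA-NC, not above background, and 84.0, 53.1 and 83.6 in siRNA-MEG3. On the scaled processed signals the first read at least 2.88-fold lower and the second at least 5.32-fold higher in siRNA-MEG3. In the fit over probes the first did not pass and the second did (adjusted p = 0.0841 and 0.0327, limma). Each probe entered only through the group in which it is high. In the fit over genes, where the brighter probe stands for Hoxb3, the difference was -2.81 ± 0.43 (adjusted p = 0.0796, limma), and with the mean of both probes it was 0.92. Without siRNA-NC array 2 the second probe becomes the brighter one and stands for the gene at 4.33, while the first stays at -2.41. The gene therefore has no single direction here, and which transcripts each probe reads was not tested.

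Hoxb6, which is expressed in lateral mesoderm and the early limb, was on throughout. It read 22.4, 36.1 and 18.6 in siRNA-NC and 67.4, 52.2 and 57.0 in siRNA-MEG3, which do not overlap. Its difference of 1.45 ± 0.22, or 2.73-fold, did not pass (adjusted p = 0.0822, limma). Among HoxB genes that could not be tested, Hoxb2 read 5.02, 5.69 and 7.19 against 18.1, 16.1 and 15.2, Hoxb5 read 3.78, 7.83 and 3.41 against 14.6, 21.9 and 18.4, and Hoxb7 read 16.6, 33.8 and 16.7 against 62.2, 12.9 and 61.1. In Hoxb2 and Hoxb5 the siRNA-MEG3 signals are the higher ones on every array, yet nearly all are at background, and in Hoxb7 the groups overlap. Hoxb1, printed in 10 spots, stayed at background in every spot of every array.

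**Figure D3:**
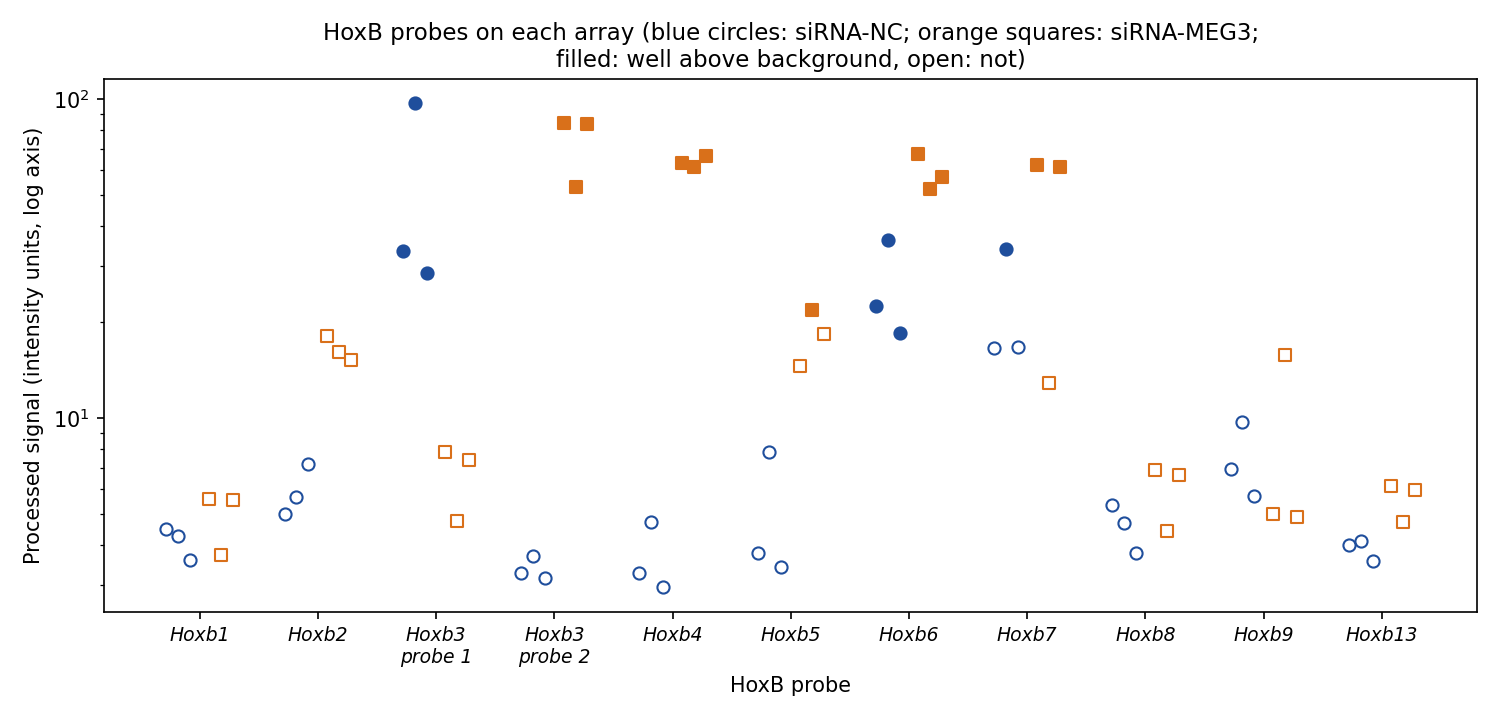
Processed signal of the 11 HoxB probes on each array (y axis, intensity units on a log axis), with siRNA-NC as circles and siRNA-MEG3 as squares, filled where the probe was well above background. Hoxb4 and the second Hoxb3 probe are filled in siRNA-MEG3 only and the first Hoxb3 probe in siRNA-NC only. Hoxb1, Hoxb2, Hoxb8, Hoxb9 and Hoxb13 are open throughout. Levels can be compared within a probe, not between probes.

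In HoxD only Hoxd11 was measured, and only through siRNA-NC. It read 37.2, 46.1 and 35.4 in siRNA-NC and 17.2, 17.3 and 14.4 in siRNA-MEG3, where no array was well above background. The groups do not overlap, and on the scaled processed signals Hoxd11 read at least 1.73-fold lower in siRNA-MEG3. Its fitted difference of -0.93 ± 0.26 did not pass (adjusted p = 0.192, limma). Over the other settings the difference ran from -1.19 to 1.63, the latter with normexp, where the median over all entries was 0.50. Hoxd10 and Hoxd11 overlap in RefSeq. The Hoxd10 probe read 3.37 to 8.50 over all arrays and was above background on none.

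Over all 4 clusters 1 of 21 measured Hox genes passed (1.37% of all entries did), 1 in the higher direction (0.952%) and 0 in the lower (0.422%). At an unadjusted p under 0.05 there were 5 (Hoxb3, Hoxb4, Hoxb6, Hoxc5 and Hoxd11), where 18.6% of all entries passed. All of them but Hoxb6 entered the test through 1 group alone, the group in which they are high, so their number supports nothing. Of the 16 genes on in all arrays, 6 had positive and 10 negative differences with a median of -0.09, against 0.03 over the 18599 entries on in all arrays. Of these 16 genes 6 did not overlap between the groups, Hoxb6 and Hoxc13 higher and Hoxa11, Hoxc6, Hoxc9 and Hoxc12 lower (37.5%, against 48.7% of entries on in all arrays). Over all entries the share without overlap was 46.9%, 25.2% higher and 21.7% lower. The number of calls rested on 1 array in each group. Without siRNA-NC array 2 no Hox gene passed (0% of all entries), and without siRNA-MEG3 array 2 there were 5 (13.2% of entries), Hoxb4, Hoxb6 and Hoxb7 higher and Hoxb3 and Hoxc5 lower. With all 6 arrays counted as 6 samples there were 8 calls (26.0% of entries). Hoxb4, Hoxb6 and Hoxc13 were then higher and Hoxb3, Hoxc5, Hoxc6, Hoxc9 and Hoxd11 lower. There were 3 with 5 samples (8.57%), 2 where the siRNA-MEG3 arrays counted as a single sample (5.92%), and 1 and 4 with the replicate number as a block in 4 and 6 samples (0.689 and 12.3%). No Hox gene passed with normexp (0%), normexp without speck spots (0.848%), no filter on dim probes (0%) or dark areas left out (2.22%). In the last of these Hoxb4 could not be fitted, so it could not be called there.

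**Figure D4:**
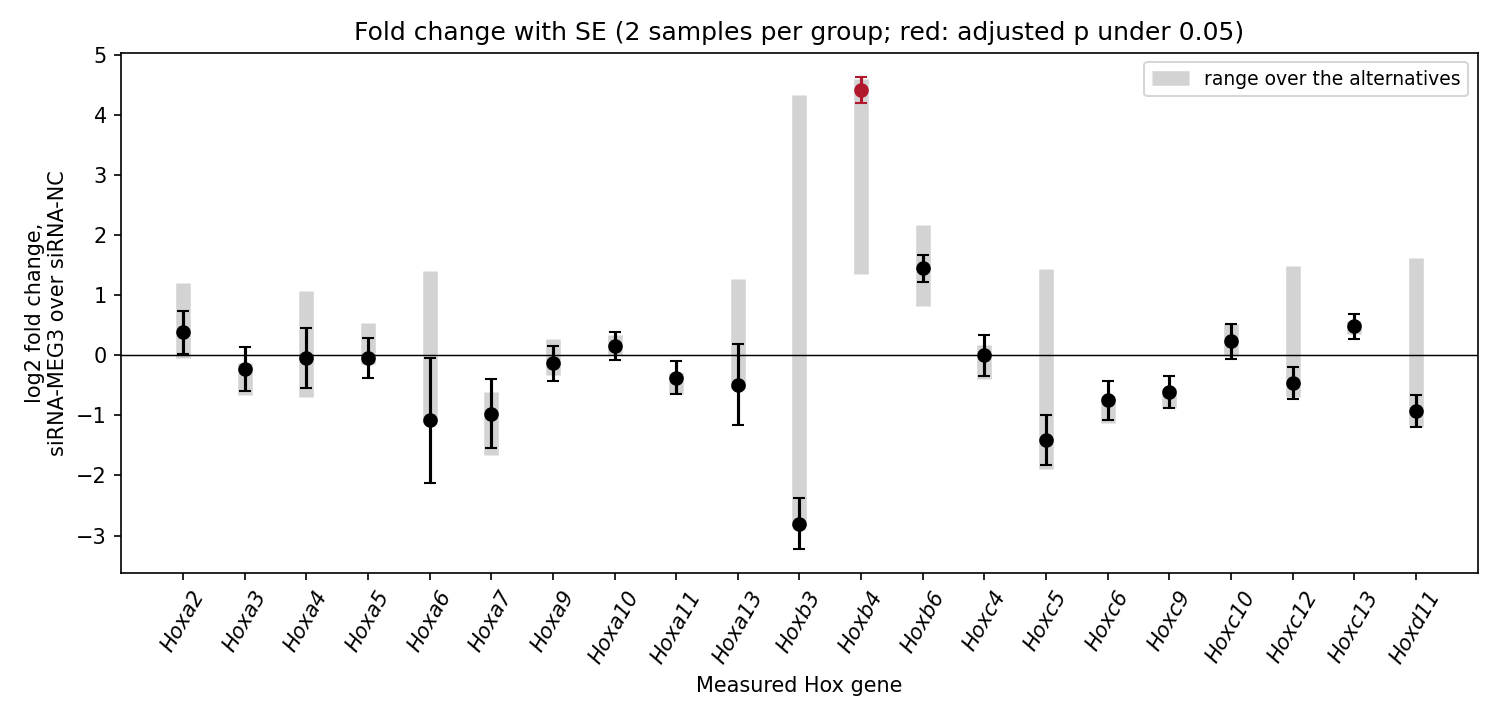
Log2 fold change of the 21 measured Hox genes, siRNA-MEG3 over siRNA-NC (y axis), as points with the standard error from limma (2 samples per group), and as grey bars the lowest to highest value over the other settings. Hoxb4 in red, at 4.41, is the only gene past the threshold, and the grey bar of Hoxb3 crosses 0 and reaches 4.33, a value of its other probe.

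The partners and regulators of Hox genes were taken as lists. Over all entries 1.37% passed the test, and the counts below are to be read beside that share. All 9 Hox cofactor genes of the Pbx, Meis and Pknox families were measured and 0 passed, with a median of -0.05. The 3 with the smallest p were Pknox2, which read 1356, 1496 and 1347 in siRNA-NC and 3197, 3125 and 2879 in siRNA-MEG3 (1.49 ± 0.31, adjusted p = 0.133, limma), Pbx4 (-1.73 ± 0.37, adjusted p = 0.136) and Pknox1 (-0.29 ± 0.28). Of 16 activators of Hox genes (trithorax subunits, retinoic acid receptors and the like), 13 were measured and 0 passed. The smallest p belonged to Men1 (-0.61 ± 0.27), Rarg (-0.38 ± 0.20) and Aldh1a2 (0.29 ± 0.21). All 21 genes that restrict Hox expression, mainly Polycomb subunits and retinoic acid-degrading enzymes, were measured, with a median of -0.04 over the list. In this list 1 gene was lower (0.422% of all entries were called lower). That gene was Cbx7, a Polycomb subunit that reads methylated histone H3. It read 356, 424 and 247 in siRNA-NC and 7.39, 11.02 and 10.53 in siRNA-MEG3, where no array was above background, and was at least 18.7-fold lower (adjusted p = 0.0206, limma). Cbx7 entered the test only through siRNA-NC, the group in which it is high.

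No factor that marks limb position or limb type passed the test, which 1.37% of all entries did. Of 28 such factors 20 were measured and 0 passed, with a median of 0.22, the smallest p belonging to Alx4 (0.78 ± 0.21, adjusted p = 0.183, limma), Tbx4 (0.89 ± 0.24, adjusted p = 0.183) and Msx2 (0.71 ± 0.20, adjusted p = 0.192). Tbx4, the hindlimb T-box factor, read 58.2, 81.3 and 57.6 in siRNA-NC and 104.4, 93.5 and 98.4 in siRNA-MEG3 and was on in all arrays. Tbx5, its forelimb counterpart, was above background on 1 siRNA-NC array and no siRNA-MEG3 array, and the hindlimb factor Pitx1 on siRNA-NC array 2 only (61.5, against 3.41 to 4.88 on the other arrays). Of 13 genes that flank the clusters 12 were on the array and 10 measured, all 10 on in all arrays, and 0 passed, the smallest p belonging to Hibadh (0.42 ± 0.22), Skap1 (0.54 ± 0.32) and Ttll6 (0.30 ± 0.20). Of 11 non-coding RNAs of the clusters 2 were on the array, and Hoxa11os alone was measured.

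Of the 8 myoblast and muscle markers 3 were higher in siRNA-MEG3, the group in which Hoxb4 was higher (0.952% of all entries were called higher). These were Myog (3.39 ± 0.22, adjusted p = 0.0246, limma), Myh3 (6.97 ± 0.54, adjusted p = 0.0292) and Actc1 (7.09 ± 0.57, adjusted p = 0.0298). None was called lower, and the list's median was 1.95. Myf5 was at -2.95 ± 0.41 (adjusted p = 0.0703, limma) and Myod1 at 2.21 ± 0.43 (adjusted p = 0.121). Of 12 markers of other cell types 11 were on the array, 8 were measured, 6 were on in all arrays and 0 passed, with a median of 0.11. The part of the muscle markers in the Hoxb4 result was not tested.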

How the data were processed

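RNA from C2C12 cells was measured on 6 1-colour Agilent mouse arrays. The deposited scanner files hold processed signal intensity per spot, background-subtracted by Agilent Feature Extraction 11.0.1.1, per the file headers. The authors' deposited table holds log2 values and was an alternative; which between-array scaling made it is unknown, and its column medians were 8.11. The labels state that repeated probes were averaged.

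Control and outlier-marked spots were left out and spots of a probe averaged. log2 signals were set relative to each array's 75th percentile. Accessions were named through RefSeq (GRCm38.p6; 27234 of 39429 probes). A probe entered if either group had it well above background on each array, and the brightest stood for its gene. limma 3.58.1 in R 4.3.3 (lmFit, eBayes) compared 2 samples with 2, with Benjamini-Hochberg adjustment, after a check on simulated data. Same-numbered arrays did not deviate together (r = -0.03 to -0.04), so no pairing was used. The rule for members uses no measured value, but members and lists were chosen with earlier results of these data known. Every member is accounted for. Of other lists, members past the threshold or the 3 with the smallest p are named. The number of arrays limits the precision.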

Additional observations from a re-analysis of the deposited data

How the results depend on the processing

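The 21 measured members stayed 21 in all settings but 3: with dim probes kept all 38 entered, with dark slide areas left out 15 could be fitted, and without siRNA-MEG3 replicate 2 there were 22. The number of Hox calls moved most with what counted as a sample. It was 1 (1 higher, 0 lower) in the 4-sample fit, 8 (3 and 5) with 6 arrays as 6 samples, 3 (2 and 1) with 5 samples, and 2 (1 and 1) where the siRNA-MEG3 arrays counted as a single sample, a setting chosen after seeing the data. It was 0 with normexp, with normexp without speck spots, with no filter on dim probes and with dark areas left out, where Hoxb4 could not be fitted. With normexp and with no filter, limma called 0 entries on the whole array (780 and 4349 at an unadjusted p under 0.05). Leaving out 1 array gave 0 to 5 calls, 0 to 3 higher and 0 to 2 lower. The lone sample then left in a group was assumed to vary like the other group. Adding the replicate number as a block left 1 call in 4 samples and gave 4 (2 higher, 2 lower) with 6 arrays. Same-numbered arrays correlated at -0.03, -0.04 and -0.03 in their deviations. Arrays 1 and 3 of each group are near copies, so these values are not independent and cannot exclude a pairing. The median over members was 0.54 with normexp, where that over all entries moved from -0.02 to 0.50, and -0.0082 with no filter (0.02 over all entries), and leaving out 1 array gave -0.30 to -0.14.

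Signs turned as follows. Normexp moved the median of all entries to 0.50, and normexp without speck spots to 0.10, so values there are to be read against these shifts, which Hoxa9, Hoxc4, Hoxc10 (normexp) and Hoxc4 and Hoxc12 (without speck spots) did not reach. Beyond the changes of probe named below, the cause was not tested. With normexp Hoxa4 was 1.06, Hoxa5 0.54, Hoxa6 1.41, Hoxa9 0.26, Hoxa13 1.27, Hoxb3 1.33, Hoxc4 -0.31, Hoxc5 1.44, Hoxc10 -0.017, Hoxc12 1.48 and Hoxd11 1.63. With normexp without speck spots Hoxa4 was 0.15, Hoxb3 1.42 (its other probe), Hoxc4 -0.084 and Hoxc12 0.082. With 6 samples, with or without the block, Hoxa5 was 0.047 and Hoxc4 -0.12, and with 5 samples 0.080 and -0.13. Hoxa5 was 0.019 with quantile normalization and 0.090 with slide blocks centred, and Hoxb3 was 0.92 as a mean of probes. Leaving out 1 array in turn gave Hoxa2 values of -0.053 to 0.39, Hoxa5 -0.14 to 0.33, Hoxa6 -1.09 to 0.39, Hoxa9 -0.34 to 0.12, Hoxa13 -0.57 to 0.39, Hoxb3 -2.85 to 4.33 and Hoxc4 -0.40 to 0.046. The sign turned without siRNA-NC replicate 2 for Hoxa2, Hoxa5, Hoxa9, Hoxa13 and Hoxc4 (for Hoxb3 the other probe then stood for the gene, and neither probe turned), without siRNA-NC replicate 1 for Hoxc4, without siRNA-NC replicate 3 for Hoxa5 and without siRNA-MEG3 replicate 2 for Hoxa6. Hoxa10, Hoxb4, Hoxb6 and Hoxc13 stayed positive, and Hoxa3, Hoxa7, Hoxa11, Hoxc6 and Hoxc9 negative, in every setting in which they could be fitted.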
